A study of Mus musculus with 8 samples.

Results

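Osteopontin is a secreted matrix glycoprotein encoded by Spp1, and its receptors on myeloid cells are the hyaluronan receptor CD44 and several integrins. The 9 genes described here were chosen by name, with earlier results of these arrays known, as Spp1 and 8 receptor genes (Cd44, Itgav, Itga4, Itga5, Itga9, Itgb1, Itgb3 and Itgb5). All 9 were measured, among 21442 genes with a symbol on the array. Each gene was read from 1 probe set, the one with the highest mean over all arrays where a gene had several. The pattern of Spp1, and the difference of Itga9 between the tumour populations, were known when the list was made, so these values are given as descriptions without a test.

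Osteopontin binds integrins of the αv and α5 type through an arginine-glycine-aspartate motif. Cleavage by thrombin exposes a neighbouring site that the integrins α4β1 and α9β1 recognise, and CD44 is a further receptor. The protein is made by bone cells, some epithelia, activated T cells and macrophages, where it acts on adhesion, migration and survival.

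The arrays held RNA of 4 populations, sorted from digested fresh tissue, of C57BL/6 mice, all heterozygous for a reporter allele (Cx3cr1gfp/+) in which green fluorescent protein marks cells that use the fractalkine receptor gene. F4/80-high tumour-associated macrophages (F4/80-high TAM) and Ly6C-high tumour-infiltrating cells (Ly6C-high TAM) were both sorted from colorectal tumours grown orthotopically in male mice. Steady-state lamina propria macrophages came from colon (colon macrophages, 1 array labelled male and 1 female), and the spleen gave Ly6C-high monocytes (called spleen monocytes, 1 array labelled male and 1 mixed). Each population had 2 arrays, no treatment was given, and ages, the tumour line and any pooling of animals are not stated in the labels. Because the labels do not say whether the replicates came from separate animals, p-values measure the spread between these samples only.

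Values are log2 expression values, so that a difference of 1 is a fold of 2, and they cannot be compared between genes. The median over 35556 probe sets was between 6.84 and 7.07 on the 8 arrays. The macrophage receptor Csf1r was high in all 4 populations (12.55 to 12.95), and the sort markers Adgre1 and Ly6c2 lay between 11.15 and 12.92 and between 9.89 and 13.01. The colon arrays also carried epithelial markers. The mean of 20 such markers was 6.80 and 8.31 in F4/80-high TAM, 6.92 and 8.77 in Ly6C-high TAM, 10.62 and 11.36 in colon macrophages and 6.90 and 6.36 in spleen monocytes. The mean of 15 fibroblast markers was 7.61 and 8.95 in F4/80-high TAM, 8.07 and 9.75 in Ly6C-high TAM, 8.32 and 8.45 in colon macrophages and 6.71 on both spleen arrays, so both tumour replicates numbered 2 stood above their partners on both lists. Of the epithelial markers, 14 of 20 were lower in F4/80-high TAM than in colon macrophages, 11 were lower in Ly6C-high TAM than in colon macrophages, and 20 were higher in colon macrophages than in spleen monocytes. By the criteria given below for receptor genes, the shares of all genes were 3.72%, 4.16% and 6.93% in the same order and directions. Against spleen monocytes, 4 of 15 fibroblast markers were called higher in Ly6C-high TAM, 2 in F4/80-high TAM and 3 in colon macrophages. The shares of all genes called higher were 2.88%, 4.58% and 6.93%. Neither tumour population had a fibroblast marker called against colon macrophages. Smooth muscle markers (8) averaged 6.63 and 7.50 in F4/80-high TAM, 6.69 and 8.04 in Ly6C-high TAM, 7.99 and 8.00 in colon macrophages and 6.76 and 6.72 in spleen monocytes. Endothelial (9), neutrophil (10), B cell (6), T and NK cell (9) and platelet (9) markers averaged 6.32 to 8.38 over the arrays. Of these, endothelial, B cell and T and NK cell means were also higher on replicate 2 of both tumour populations. Immediate early genes (15), which cell handling can induce, averaged 10.93 and 11.59 in F4/80-high TAM, 11.33 and 11.90 in Ly6C-high TAM, 12.18 and 12.14 in colon macrophages and 10.99 and 9.97 in spleen monocytes. Of these 15, 8 were higher in colon macrophages than in spleen monocytes, beside 6.93% of all genes. The part of these lists in the differences described here was not tested. Because each array read a bulk of sorted cells, fewer cells of a type and less RNA per cell cannot be told apart.

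Spp1 lies on the forward strand of mouse chromosome 5, at 104435111 to 104441053 in GRCm38.p6. The 250 bases before its annotated start site, chr5:104434861-104435110, are shown because Spp1 had the widest range of the 9 genes. The receptor genes lie on chromosome 2 (Cd44, Itga4 and Itgav), 8 (Itgb1), 9 (Itga9), 11 (Itgb3), 15 (Itga5) and 16 (Itgb5). The sequence is from RefSeq, and the capitals mark the letters of 3 motifs that were searched on both strands.

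Spp1 promoter: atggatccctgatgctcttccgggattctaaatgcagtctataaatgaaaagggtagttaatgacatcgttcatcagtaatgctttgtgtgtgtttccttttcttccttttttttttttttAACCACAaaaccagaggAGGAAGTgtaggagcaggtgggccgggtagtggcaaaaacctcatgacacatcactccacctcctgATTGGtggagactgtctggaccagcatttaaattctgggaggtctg

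From left to right the capitals are a RUNX core (AACCACA, positions -129 to -123 from the start site), an ETS core (AGGAAGT, positions -112 to -106) and a CCAAT box read on the other strand (ATTGG, positions -46 to -42). Over 32851 promoter windows of 300 bases, 5.27% held the RUNX core, 9.35% the ETS core and 37.4% the CCAAT box, on either strand. Promoter windows were matched for 8 of the 9 genes. The RUNX core and the CCAAT box occurred in the windows of Spp1 alone among them, and the ETS core also in that of Itgav. This Itgav window lies at a start site inside the annotated span of Itgav. A further motif, the AP-1 site TGANTCA, was found in 7.81% of all windows and, among the matched genes, in the window of Itga9, which lies at a start site inside that gene's annotated span. The motifs overlap each other nowhere in the Spp1 sequence.

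Spp1, the ligand, was high in both tumour populations and low in both populations from healthy tissue. It read 12.98 and 13.07 in F4/80-high TAM, 12.92 and 12.82 in Ly6C-high TAM, 7.43 and 7.16 in colon macrophages, and 5.62 and 5.84 in spleen monocytes. All 4 tumour arrays lay above all 4 others, with no overlap, and the tumour populations overlapped neither each other nor the healthy ones. As a description, the level in F4/80-high TAM was 5.73 ± 0.15 (SE, n = 2 per group) above colon macrophages on the log2 scale, and 7.30 ± 0.15, or 157-fold, above spleen monocytes. In Ly6C-high TAM it was 7.14 ± 0.15 above spleen monocytes, or 141-fold, and 5.58 ± 0.15 above colon macrophages, or 47.7-fold.

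The tumour populations themselves were close in Spp1. F4/80-high TAM exceeded Ly6C-high TAM by 0.16 ± 0.15. Colon macrophages exceeded spleen monocytes by 1.56 ± 0.15, a 2.96-fold difference. The order of the levels was therefore F4/80-high TAM, Ly6C-high TAM, colon macrophages and spleen monocytes. The gap of the first pair was close to its SE in size, so their order is uncertain. Between the tumour arrays with more and with less fibroblast and epithelial signal, Spp1 differed by 0.09 in F4/80-high TAM and by 0.10 in Ly6C-high TAM. With both tumour populations reduced to replicate 1, Spp1 stood 5.69 above colon macrophages and 7.25 above spleen monocytes in F4/80-high TAM, and 5.63 and 7.19 above them in Ly6C-high TAM. Replicate 1 was not free of fibroblast signal. Its fibroblast means were 7.61 in F4/80-high TAM and 8.07 in Ly6C-high TAM, against 6.71 on both spleen arrays and 8.32 and 8.45 in colon macrophages. The part of other cells in the Spp1 differences was not tested.

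**Figure D1:**
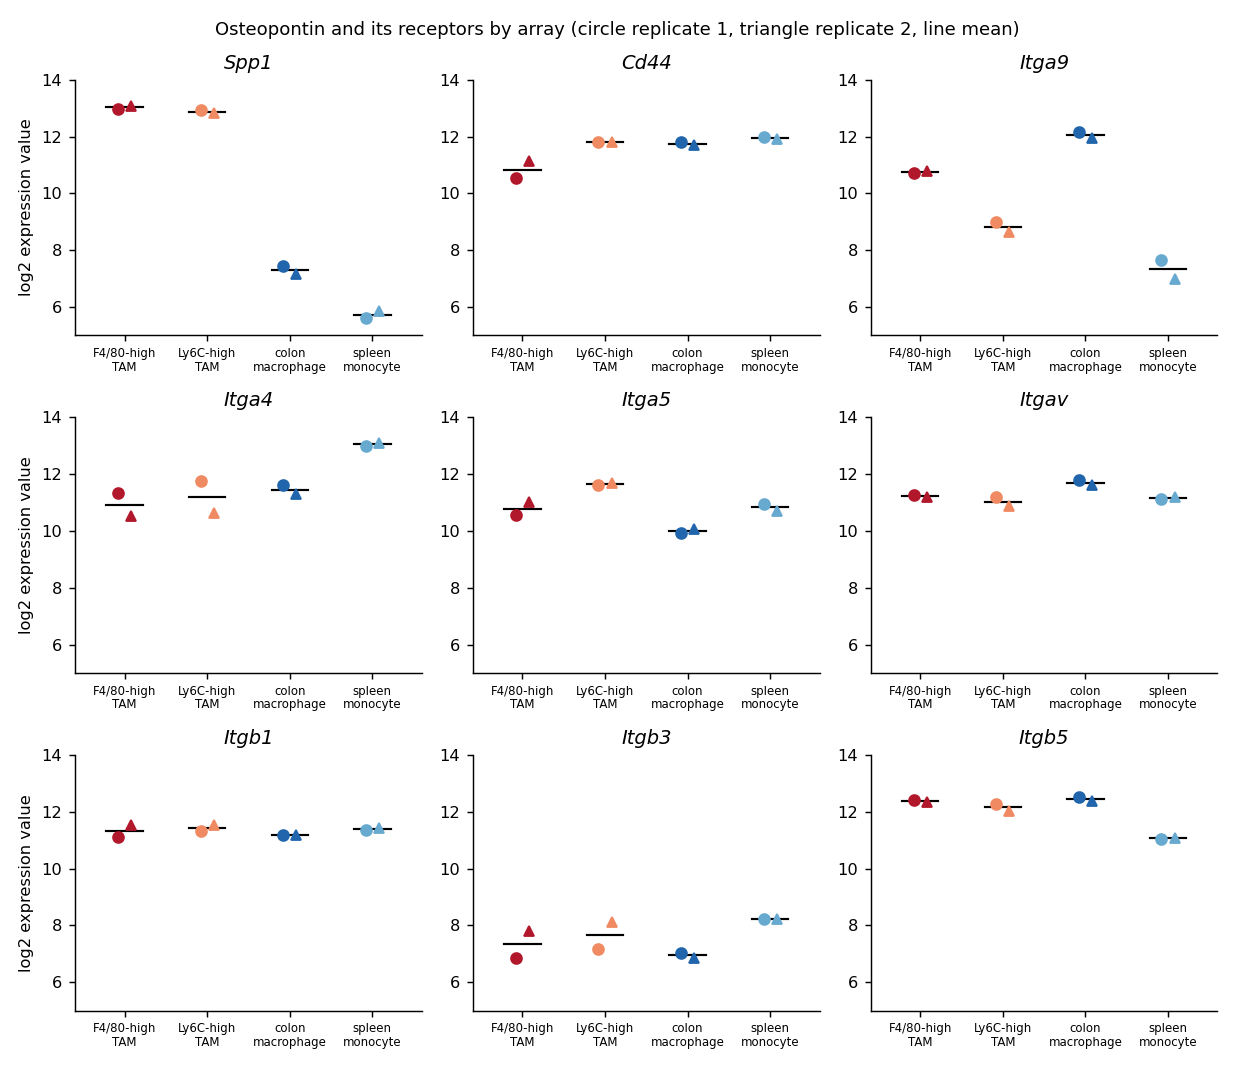
The log2 expression value of each of the 9 genes is plotted on the vertical axis against the 4 populations, with a circle for replicate 1, a triangle for replicate 2 and a line for their mean. Spp1 reads 12.82 to 13.07 on the tumour arrays and 5.62 to 7.43 on the others, while Itga9 is highest in colon macrophages and Itga4 in spleen monocytes.

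The genes whose pattern over the 8 arrays lay nearest to that of Spp1 were found by the root mean square difference of log2 values, each gene centred on its own mean, among 19029 named genes. Arg1, arginase 1, which turns arginine into ornithine, was nearest (0.54). Its means were 12.51 for F4/80-high TAM, 12.65 for Ly6C-high TAM, 6.24 for colon macrophages and 6.14 for spleen monocytes. Mela followed at 0.82 and Irg1, whose enzyme makes itaconate, at 1.14. Nt5e, the ectonucleotidase CD73 (1.38), and Slc7a2, a transporter of cationic amino acids (1.46), completed the 5. Nt5e shared with Spp1 a higher mean in colon macrophages (8.53) than in spleen monocytes (6.26).

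**Figure D2:**
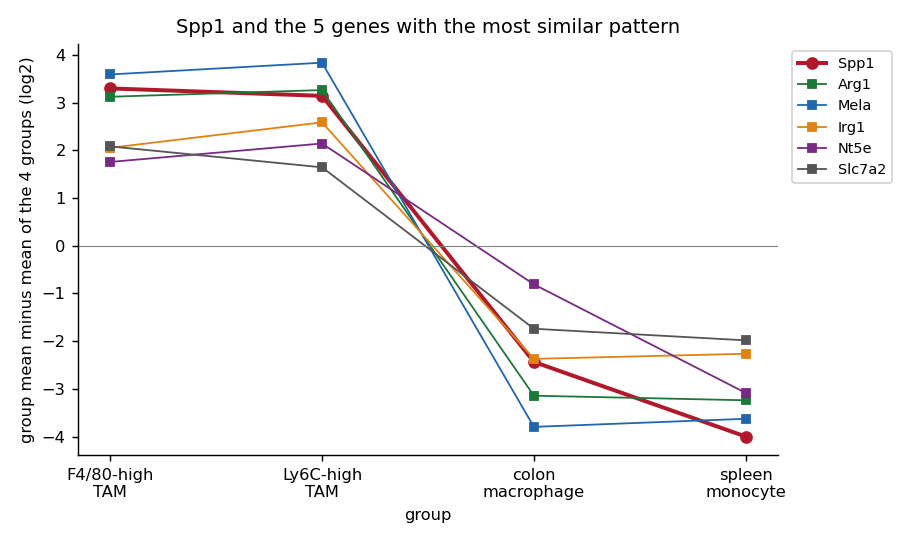
The vertical axis gives each population's mean log2 value minus the mean of the 4 population means, for Spp1 and the 5 genes with the smallest root mean square difference from it, and the horizontal axis gives the populations. All 6 lines are high in both tumour populations and low in both healthy ones.

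The receptor genes did not follow the ligand. Of the 8, 1 was called in F4/80-high TAM against colon macrophages (Itga9, lower), where a call needed an adjusted p of 0.05 or less from limma over all 21442 genes and a fold of 2 or more. Over all genes, 6.39% were called in that comparison, 2.67% higher and 3.72% lower. In Ly6C-high TAM against spleen monocytes 3 receptors were called, Itga9 and Itgb5 higher and Itga4 lower, with 4.5% of all genes called (2.88% higher, 1.62% lower). In F4/80-high TAM against spleen monocytes 4 were called, Itga9 and Itgb5 higher and Itga4 and Cd44 lower, with a background of 6.95% (4.58% higher, 2.37% lower). In Ly6C-high TAM against colon macrophages 2 were called, Itga5 higher and Itga9 lower, with 6.9% of all genes called (2.74% higher, 4.16% lower). In colon macrophages against spleen monocytes 3 were called, Itgb5 and Itga9 higher and Itga4 lower, at 10.9% of all genes (6.93% higher, 4% lower). Between the tumour populations, where 0.266% of all genes were called (0.168% higher, 0.0979% lower), only Itga9 reached the criteria, and that value was known when the genes were chosen. Nothing is read from that count. The 6 comparisons share arrays, so their counts are not independent of each other. The median log2 difference of the 8 receptors in F4/80-high TAM against colon macrophages was -0.27, beside 0.05 over all genes, and in Ly6C-high TAM against spleen monocytes it was -0.05, beside -0.08.

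**Figure D3:**
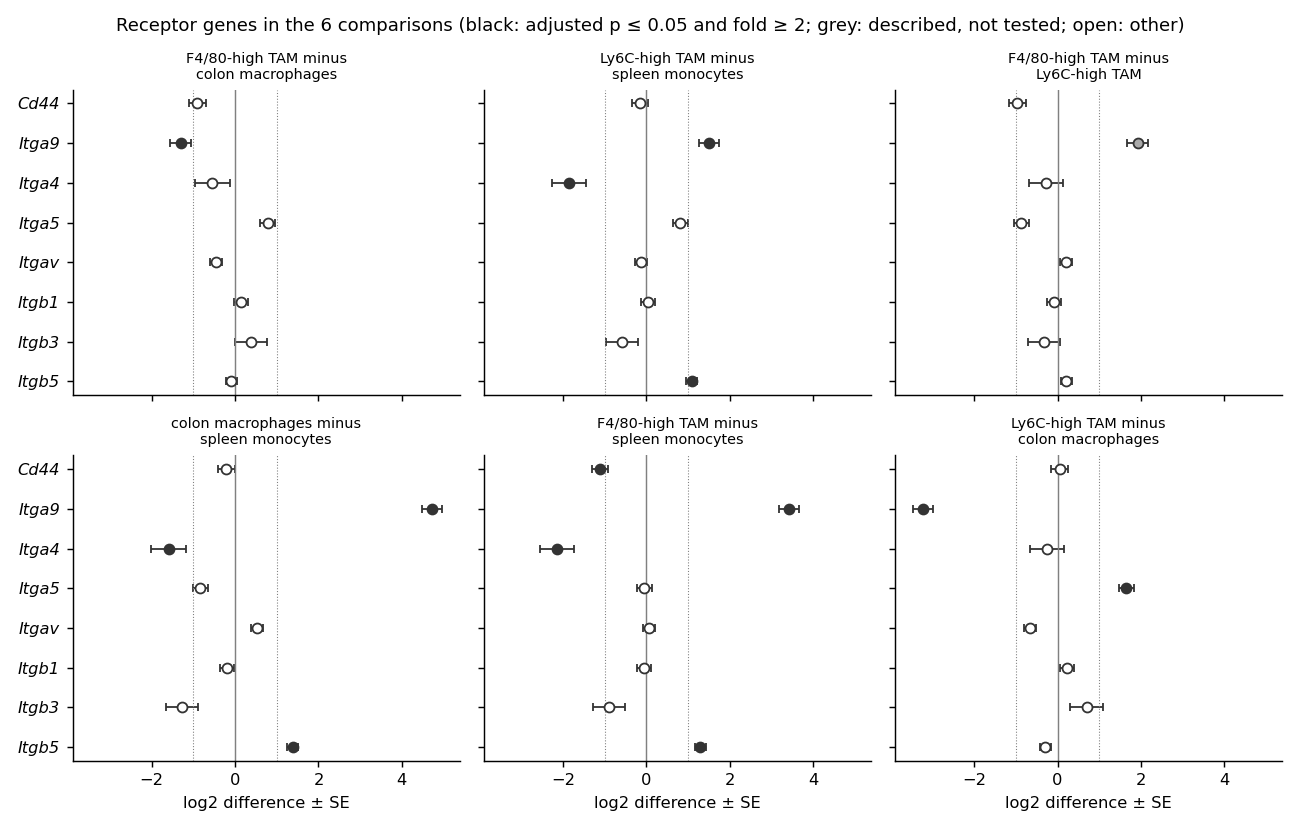
Each panel is 1 comparison, with the log2 difference of the 8 receptor genes on the horizontal axis and bars of 1 SE. Black points passed both criteria, the grey point is described without a test, open points did not pass, and dotted lines mark a fold of 2. Itga9 has the widest spread, with differences between -3.23 and 4.72.

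Itga9 encodes the α9 chain, which pairs with the β1 chain and binds the site of osteopontin that thrombin exposes. It read 10.72 and 10.78 in F4/80-high TAM, 9.01 and 8.64 in Ly6C-high TAM, 12.15 and 11.94 in colon macrophages, and 7.67 and 6.98 in spleen monocytes. None of the populations overlapped. F4/80-high TAM lay above Ly6C-high TAM, and colon macrophages above spleen monocytes. The order of the levels was colon macrophages, F4/80-high TAM, Ly6C-high TAM and spleen monocytes.

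Itga9 was 2.47-fold lower in F4/80-high TAM than in colon macrophages (-1.30 ± 0.25 on the log2 scale, limma adjusted p = 0.0218). That call was lost without either F4/80-high TAM array or either colon array (-1.41 to -1.20, limma adjusted p of 0.0774 to 0.111). In Ly6C-high TAM it was 2.83-fold higher than in spleen monocytes (1.50 ± 0.25, limma adjusted p = 0.0173), and this call was lost without spleen monocyte replicate 2 (1.15, limma adjusted p = 0.092) and with only the 4 arrays of these groups fitted (limma adjusted p = 0.104). The larger gaps passed under all 17 other settings tried: 26.4-fold higher in colon macrophages than in spleen monocytes (4.72 ± 0.25), 10.7-fold higher in F4/80-high TAM than in spleen monocytes (3.42 ± 0.25) and 9.35-fold lower in Ly6C-high TAM than in colon macrophages (-3.23 ± 0.25, limma adjusted p = 0.0011). As a description, F4/80-high TAM stood 1.92 ± 0.25 above Ly6C-high TAM.

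The difference of Itga9 between tumour cells and their healthy counterparts had opposite directions in the mature and the Ly6C-high populations. The interaction, F4/80-high TAM minus colon macrophages less Ly6C-high TAM minus spleen monocytes, was -2.80 ± 0.35. It contains the difference between the tumour populations that was known when the genes were chosen, so it is a description without a test. Epithelial markers were highest in the colon arrays, as Itga9 was. The colon array with an epithelial mean of 11.36 read 11.94 in Itga9, and the one with a mean of 10.62 read 12.15. In F4/80-high TAM the replicates differed by 0.06 in Itga9, while their epithelial means were 6.80 and 8.31. The part of epithelial cells in the Itga9 differences was not tested.

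The genes nearest to Itga9 in pattern were Plxdc2, a transmembrane protein gene (root mean square difference 0.27), Blnk, an adaptor of immune receptor signalling (0.40), and Gpr31b (0.45). Plxdc2 had means of 10.17 for F4/80-high TAM, 8.58 for Ly6C-high TAM, 11.61 for colon macrophages and 7.08 for spleen monocytes.

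Itga4 encodes the α4 chain, which with β1 forms the receptor VLA-4 of monocytes and lymphocytes and shares with α9β1 the thrombin-exposed site. It read 11.32 and 10.51 in F4/80-high TAM, 11.77 and 10.63 in Ly6C-high TAM, 11.62 and 11.29 in colon macrophages, and 13.00 and 13.10 in spleen monocytes. The spleen arrays lay above the other 6, which overlapped each other. Itga4 was 4.39-fold lower in F4/80-high TAM than in spleen monocytes (-2.13 ± 0.41, limma adjusted p = 0.0211), 3.6-fold lower in Ly6C-high TAM (-1.85 ± 0.41, limma adjusted p = 0.0476) and 3.02-fold lower in colon macrophages (-1.59 ± 0.41, limma adjusted p = 0.0393).

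These 3 calls of Itga4 depended on the arrays and settings used. The call in Ly6C-high TAM was lost under 11 of 17 other settings, that in colon macrophages under 6 and that in F4/80-high TAM under 3, each with an unchanged direction. Without spleen monocyte replicate 1 or 2, all 3 were lost, with limma adjusted p-values of 0.121 to 0.267. Without replicate 2 of the population itself, the difference was -1.28 in Ly6C-high TAM and -1.73 in F4/80-high TAM. The tumour replicates stood 0.81 apart in F4/80-high TAM and 1.14 apart in Ly6C-high TAM, and in both the array with more fibroblast and epithelial signal had the lower Itga4. The part of those cells in the result was not tested. The nearest genes in pattern were Atp10d (0.14), Ampd3, an AMP deaminase (0.20), and Inpp5f (0.22).

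Itgb7 encodes the other β chain that pairs with α4, in a receptor for gut homing. It read 8.50 and 9.78 in F4/80-high TAM, 9.85 and 10.22 in Ly6C-high TAM, 7.38 and 7.16 in colon macrophages, and 10.78 and 10.82 in spleen monocytes. It was lower in colon macrophages than in spleen monocytes (-3.53 ± 0.38, limma adjusted p = 0.00188). It was higher in Ly6C-high TAM than in colon macrophages (2.77 ± 0.38, limma adjusted p = 0.00732), a call lost without colon replicate 2 (limma adjusted p = 0.0552).

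Itga5 encodes the α5 chain of the fibronectin receptor α5β1, which also binds osteopontin through its arginine-glycine-aspartate motif. It read 10.56 and 11.00 in F4/80-high TAM, 11.62 and 11.67 in Ly6C-high TAM, 9.92 and 10.08 in colon macrophages, and 10.95 and 10.71 in spleen monocytes. Ly6C-high TAM lay above and colon macrophages below all other arrays, while F4/80-high TAM and spleen monocytes overlapped. Itga5 was 3.13-fold higher in Ly6C-high TAM than in colon macrophages (1.65 ± 0.18, limma adjusted p = 0.0033), and it passed under all 17 other settings. Against spleen monocytes the difference was 0.82 in Ly6C-high TAM (limma adjusted p = 0.046) and -0.83 in colon macrophages (limma adjusted p = 0.0213), and F4/80-high TAM stood 0.78 above colon macrophages (limma adjusted p = 0.037). These 3 passed the adjusted p but were folds of 1.72 to 1.78. The nearest genes in pattern were Slc25a22, a mitochondrial glutamate carrier (0.17), Tspo, a protein of the outer mitochondrial membrane (0.18), and D16Ertd472e (0.19).

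Cd44, the receptor that also binds hyaluronan, read 10.53 and 11.14 in F4/80-high TAM, 11.80 on both Ly6C-high TAM arrays, 11.79 and 11.69 in colon macrophages, and 11.98 and 11.92 in spleen monocytes. F4/80-high TAM lay below the other 6 arrays. Cd44 was 2.16-fold lower in F4/80-high TAM than in spleen monocytes (-1.11 ± 0.20, limma adjusted p = 0.0172). That call was lost without F4/80-high TAM replicate 1 (-0.80), without spleen monocyte replicate 1 (-1.08) or 2 (-1.14), and with arrays centred on their medians (-0.98). Against colon macrophages it was lower by 1.87-fold (-0.90 ± 0.20, limma adjusted p = 0.0338), under the fold required, and passed both criteria without F4/80-high TAM replicate 2 (-1.21). Against Ly6C-high TAM the difference was -0.96 ± 0.20 (limma adjusted p = 0.179), and it passed with both tumour populations reduced to replicate 1 (-1.26, limma adjusted p = 0.0367). The F4/80-high TAM array with more fibroblast and epithelial signal had the higher Cd44, and the part of those cells was not tested. The probe set reads the gene as a whole, so splice variants of CD44 were not resolved. Dennd3 (0.16) and Sowahc (0.19) were nearest in pattern.

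Of the other chains, Itgb5 encodes the β5 partner of αv. It read 12.39 and 12.34 in F4/80-high TAM, 12.29 and 12.02 in Ly6C-high TAM, 12.52 and 12.38 in colon macrophages, and 11.05 and 11.09 in spleen monocytes. The spleen arrays lay below all 6 others. Itgb5 was 2.46-fold higher in F4/80-high TAM than in spleen monocytes (1.30 ± 0.13, limma adjusted p = 0.00202), 2.12-fold higher in Ly6C-high TAM (1.08 ± 0.13, limma adjusted p = 0.00576) and 2.61-fold higher in colon macrophages (1.38 ± 0.13, limma adjusted p = 0.00122). The call in Ly6C-high TAM was lost without its replicate 1 (0.95, under the fold required) and without spleen monocyte replicate 1 or 2 (limma adjusted p of 0.0687 and 0.0693).

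No call was made for Itgb5 in limma between any pair of the 3 tissue populations. The interaction of the tumour differences was -1.17 ± 0.19 (limma adjusted p = 0.0212), where 6.56% of all genes passed at an adjusted p of 0.05 (3.12% higher, 3.44% lower). It was lost when any 1 of 6 arrays was left out (limma adjusted p of up to 0.116). A weaker probe set of Itgb5, not used for the tests, had the same spleen-low pattern, with 8.50 and 8.62 in spleen monocytes and 9.52 to 9.98 elsewhere. Nearest in pattern were Lgmn, a lysosomal protease gene (0.07), Apoe, the apolipoprotein E gene (0.07), and Rhoh (0.12).

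Itgav encodes the αv chain that β1, β3 and β5 share. It read 11.27 and 11.20 in F4/80-high TAM, 11.20 and 10.87 in Ly6C-high TAM, 11.78 and 11.60 in colon macrophages, and 11.13 and 11.20 in spleen monocytes. Colon macrophages lay above all other arrays, and both arrays of F4/80-high TAM lay at or just above the others. No comparison was called. The difference of -0.66 ± 0.15 between Ly6C-high TAM and colon macrophages passed the adjusted p (limma adjusted p = 0.0357) at a fold of 1.58, and colon macrophages stood 0.53 ± 0.15 above spleen monocytes (limma adjusted p = 0.0524). Slc36a2 (0.05), Ggta1 (0.07) and Negr1 (0.08) were nearest in pattern.

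Itgb3 encodes the β3 chain of αvβ3, the receptor of osteoclasts and, with another α chain, of platelets. It read 6.87 and 7.80 in F4/80-high TAM, 7.16 and 8.13 in Ly6C-high TAM, 7.04 and 6.86 in colon macrophages, and 8.23 and 8.21 in spleen monocytes. Spleen monocytes lay above the other 6 arrays, which overlapped in part. No comparison was called, and the closest was colon macrophages minus spleen monocytes (-1.27 ± 0.39, limma adjusted p = 0.0675), which passed under 8 of 17 other settings. With both tumour populations reduced to replicate 1, Itgb3 was also called lower than in spleen monocytes in F4/80-high TAM (-1.35, limma adjusted p = 0.00404) and in Ly6C-high TAM (-1.06, limma adjusted p = 0.0138), the lone tumour arrays being assumed to vary like the other groups. The tumour replicates stood 0.93 apart in F4/80-high TAM and 0.97 apart in Ly6C-high TAM, and the higher array was in both cases the one with more fibroblast and epithelial signal. The part of those cells was not tested. Itga2b, the platelet partner of β3, read 6.57 to 7.02 over all 8 arrays. St3gal2, a sialyltransferase gene (0.15), Septin11 (0.18) and Cd2 (0.22) were nearest in pattern.

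Itgb1 encodes the common partner of α4, α5, α9 and αv, and it varied least. It read 11.12 and 11.54 in F4/80-high TAM, 11.32 and 11.52 in Ly6C-high TAM, 11.18 and 11.19 in colon macrophages, and 11.35 and 11.42 in spleen monocytes. No comparison was called, and the 95% intervals of the 6 differences lay between -0.59 and 0.63. A weaker probe set of Itgb1 read 7.74 to 8.36. Nmnat2 (0.04), Eef1d (0.04) and Sympk (0.06) were nearest, among the many genes with little variation.

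**Figure D4:**
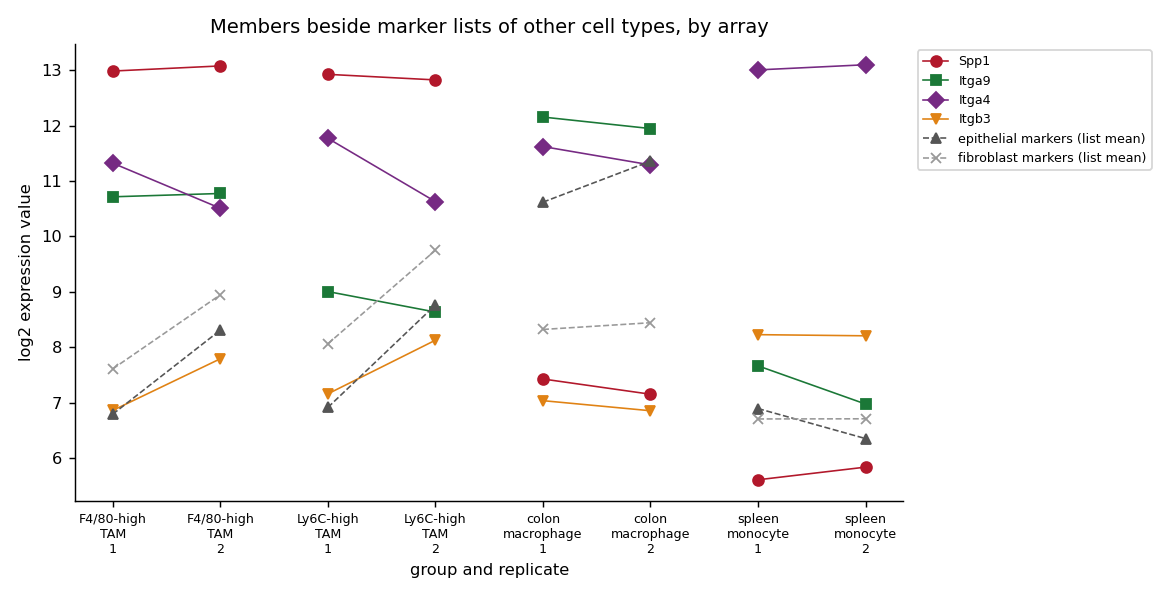
The log2 values of Spp1, Itga9, Itga4 and Itgb3 and the mean log2 values of the epithelial and fibroblast marker lists are plotted for each array, with lines joining replicates of 1 population. In both tumour populations replicate 2 is higher in both marker lists and in Itgb3 and lower in Itga4, while Spp1 is level. Heights of different genes are not comparable.

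A list of 11 genes, all measured, was taken for the processing and modification of osteopontin. Whether each of them acts on osteopontin in these cells was not tested. In Ly6C-high TAM against spleen monocytes 5 were higher and 0 lower, with a median difference of 1.14 beside -0.08 over all genes, of which 2.88% were called higher and 1.62% lower. In colon macrophages against spleen monocytes 4 were higher and 0 lower (median 0.33), where 6.93% of all genes were higher and 4% lower. In F4/80-high TAM against spleen monocytes 4 were higher and 0 lower (median 0.78), beside 4.58% and 2.37% of all genes. In F4/80-high TAM against colon macrophages 2 were higher and 1 lower (median 0.17), beside 2.67% and 3.72%. Golm1 was 1 of those called higher than in spleen monocytes in Ly6C-high TAM and in colon macrophages. It was the 1 called lower in F4/80-high TAM against colon macrophages. Tgm2, the transglutaminase that crosslinks osteopontin, read 11.82 and 12.51 in F4/80-high TAM, 12.97 and 13.10 in Ly6C-high TAM, 10.59 and 10.73 in colon macrophages, and 8.86 and 8.65 in spleen monocytes. It was 19.5-fold higher in Ly6C-high TAM than in spleen monocytes (4.28 ± 0.23, limma adjusted p = 0.000332) and 2.83-fold higher in F4/80-high TAM than in colon macrophages (1.50 ± 0.23, limma adjusted p = 0.012), the second call being lost without either colon array.

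Mmp12, the macrophage elastase, was higher than in spleen monocytes in all 3 tissue populations: by 4.73 ± 0.25 for F4/80-high TAM, 3.99 ± 0.25 for Ly6C-high TAM and 3.97 ± 0.25 for colon macrophages. Acp5, the tartrate-resistant phosphatase that removes phosphate from osteopontin, was likewise higher by 2.34 ± 0.12, 1.21 ± 0.12 and 2.57 ± 0.12 in the same order. Acp5 was 2.19-fold higher in F4/80-high TAM than in Ly6C-high TAM (limma adjusted p = 0.033), a call lost when any 1 of 7 arrays was left out. Fam20c, the kinase that phosphorylates osteopontin, was higher by 1.06 in F4/80-high TAM than in colon macrophages (limma adjusted p = 0.0444) and by 1.29 in Ly6C-high TAM than in spleen monocytes (limma adjusted p = 0.0347), and the first was lost when any 1 of 6 arrays was left out, the second when any 1 of 4 was.

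Other ligands of the same receptors were taken as a list of 20, all measured. In F4/80-high TAM against colon macrophages 2 were higher and 1 lower (median difference 0.08, beside 0.05 over all genes), and in Ly6C-high TAM against spleen monocytes 1 was higher and 0 lower (median 0.49, beside -0.08). Of all genes, 2.67% were called higher and 3.72% lower in the first comparison, and 2.88% and 1.62% in the second. Fn1, fibronectin, the ligand of α5β1, read 13.02 and 13.22 in F4/80-high TAM, 13.61 and 13.53 in Ly6C-high TAM, 9.65 and 9.60 in colon macrophages, and 13.41 and 13.44 in spleen monocytes. It was thus low in colon macrophages alone, by 3.95 ± 0.12 against Ly6C-high TAM and by 3.50 ± 0.12 against F4/80-high TAM (limma adjusted p = 8.29e-05 and 0.000157), unlike Spp1, which was also low in spleen monocytes. Thbs1, thrombospondin 1, was higher in Ly6C-high TAM than in spleen monocytes (2.89 ± 0.21, limma adjusted p = 0.000887). It was also called higher than in spleen monocytes in F4/80-high TAM and in colon macrophages. Thbs1 read 12.84 and 13.26 in F4/80-high TAM, 12.39 and 12.80 in colon macrophages, and 10.91 and 10.57 in spleen monocytes. The other small integrin-binding phosphoproteins related to osteopontin, Ibsp, Dmp1, Mepe and Dspp, had 0 calls of 4 in limma in each of the 6 comparisons. Of all genes, 0.266% to 10.9% were called in these comparisons. All 4 read below the median over all probe sets on every array, so nothing is read from that count. Ibsp, bone sialoprotein, read 4.59 to 4.91 on all arrays.

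Among 10 other chains that pair with the receptor chains listed above, 1 was higher and 1 lower in F4/80-high TAM against colon macrophages, and 0 were higher and 1 lower in Ly6C-high TAM against spleen monocytes. The shares of all genes were 2.67% higher and 3.72% lower in the first comparison, and 2.88% and 1.62% in the second. The chain lower in Ly6C-high TAM was Itga8, whose product pairs with β1 and binds osteopontin, by 1.52 ± 0.18 (6.25 and 6.03 in Ly6C-high TAM, 7.75 and 7.57 in spleen monocytes, limma adjusted p = 0.00531), and the call was lost without spleen monocyte replicate 1. Itga8 was also called lower in Ly6C-high TAM than in colon macrophages (-1.52). It read 7.56 and 7.76 in colon macrophages and 7.48 and 7.06 in F4/80-high TAM. These readings lie near the array medians of 6.84 to 7.07. Itgb6, an epithelial β chain of αv, was higher in colon macrophages than in spleen monocytes (1.76 ± 0.45, limma adjusted p = 0.0378). It read 6.38 and 7.62 in colon macrophages, against 5.26 and 5.21 in spleen monocytes, and the colon array with more epithelial signal was the higher one. The call was lost when any 1 of 5 arrays was left out, that one (colon replicate 2) among them.

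Of 15 genes of hyaluronan, the other ligand of CD44, 2 were higher and 1 lower in F4/80-high TAM against colon macrophages, and 2 were higher and 0 lower in Ly6C-high TAM against spleen monocytes. Beside these counts, 2.67% of all genes were called higher and 3.72% lower in the first comparison, and 2.88% and 1.62% in the second. Vcan, the hyaluronan-binding proteoglycan versican, read 8.81 and 10.16 in F4/80-high TAM, 11.87 and 11.92 in Ly6C-high TAM, 6.76 and 7.31 in colon macrophages, and 11.76 and 11.53 in spleen monocytes. It was 29-fold higher in Ly6C-high TAM than in colon macrophages (4.86 ± 0.42, limma adjusted p = 0.00171). Stab1, a scavenger receptor related to the hyaluronan receptor stabilin 2, was 18.3-fold higher in Ly6C-high TAM than in spleen monocytes (4.19 ± 0.34, limma adjusted p = 0.00126). It was also called higher than in spleen monocytes in colon macrophages (5.34) and in F4/80-high TAM (5.15).

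Of 32 genes of integrin activation and adhesion signalling, 1 was higher and 1 lower in F4/80-high TAM against colon macrophages, and 4 were higher and 1 lower in Ly6C-high TAM against spleen monocytes. For all genes the shares were 2.67% higher and 3.72% lower in the first comparison, and 2.88% and 1.62% in the second. Rasgrp2, the exchange factor that activates Rap1 upstream of integrins, was 13.8-fold lower in colon macrophages than in spleen monocytes (-3.79 ± 0.17), 14-fold lower in F4/80-high TAM (-3.81 ± 0.17) and 7.67-fold lower in Ly6C-high TAM (-2.94 ± 0.17). The tetraspanin Cd9 was 13.4-fold higher in Ly6C-high TAM than in spleen monocytes (3.75 ± 0.37, limma adjusted p = 0.00242), and the kinase gene Src was 5.99-fold higher (2.58 ± 0.26, limma adjusted p = 0.00267). Against spleen monocytes, Cd9 was also called higher in colon macrophages (3.51) and F4/80-high TAM (3.33). So was Src, by 2.44 in colon macrophages and 2.21 in F4/80-high TAM. Msn, moesin, which links CD44 to the actin cortex, was 2.41-fold higher in Ly6C-high TAM than in colon macrophages (1.27 ± 0.13, limma adjusted p = 0.00289). Msn was low in colon macrophages alone (11.43 and 11.45). It read 12.37 and 12.56 in F4/80-high TAM, 12.60 and 12.82 in Ly6C-high TAM, and 12.69 and 12.75 in spleen monocytes. Between the tumour populations, limma called 0 of these 32 genes, 0 of the 20 ligands and 0 of the 15 hyaluronan genes, where 0.266% of all genes were called.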

How the data were processed

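The deposited values are log2 expression values of Affymetrix arrays that the authors made with RMA (background correction, normalization between arrays and summary of probes into probe sets) and Partek 6.6, per the submitters' processing notes. The genome build is not given in the sources used here. Values came from the series matrix. A deposited annotated table gave gene symbols, and its 8 value columns, whose headings match no sample label, were not used. Symbols were updated through RefSeq accessions of GRCm38.p6, which matched 21023 of 24692 named probe sets and changed 1926 symbols. The probe set with the highest mean stood for a gene. limma 3.58.1 in R 4.3.3 fitted a mean per population to all 8 arrays and 21442 genes, with 2.64 prior and 4 residual degrees of freedom, and adjusted p-values over all genes by the Benjamini-Hochberg method. Calls took adjusted p-values up to 0.05 with folds of at least 2, the limits in the submitters' notes, and the interaction needed the adjusted p alone. The fit was tested on simulated data with independent errors between arrays. Those data lacked the correlated deviations of the tumour populations given below, so nothing about the calls made here is read from them. The number of arrays limits the precision, and no detection calls were used.

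The members and lists were chosen with earlier results of these data known. Named genes were all 9 members, up to 4 called genes per pathway list and comparison, of which not all are printed, the sort markers Adgre1, Ly6c2 and Csf1r, Itga2b and Ibsp (chosen after their values were seen), and the nearest genes in pattern (5 for Spp1, 3 for each other member, of which 1 for Cd44 is not reported here), leaving out predicted or unnamed transcripts and probe sets whose RefSeq entries name several genes. Differences of members under 0.5 on the log2 scale are given only where stated. Alternatives changed the scaling, the filter on dim genes, the choice of probe set, the arrays fitted, the variance model and the replicate block. Marker lists of other cell types are given as means per array.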

Additional observations from a re-analysis of the deposited data

Results flagged for a closer look

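The tumour difference of Itga9 differed between the mature and the Ly6C-high populations (interaction -2.80 on the log2 scale). The difference was not tested, because it contains a difference known when the genes were chosen. Itga9 was lower in F4/80-high TAM than in colon macrophages (-1.30) and higher in Ly6C-high TAM than in spleen monocytes (1.50), on both arrays of each population. The tumour difference of Itgb5 also differed between them (interaction -1.17, limma adjusted p = 0.0212), with 1.08 in Ly6C-high TAM against spleen monocytes and no call in F4/80-high TAM against colon macrophages. This interaction was lost when any 1 of 6 arrays was left out. The call of 1.08 was lost when any 1 of 3 arrays was.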

How the results depend on the processing

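Leaving out 1 array at a time, limma called the following numbers of the 8 receptor genes: 0 to 1 in F4/80-high TAM minus colon macrophages (1 on all arrays), 0 to 2 for Ly6C-high TAM minus spleen monocytes (3), 0 to 0 for F4/80-high TAM minus Ly6C-high TAM (1, the difference of Itga9 known when the genes were chosen, so that nothing is read from its loss), 2 to 4 for colon macrophages minus spleen monocytes (3), 2 to 4 for F4/80-high TAM minus spleen monocytes (4), 2 to 2 for Ly6C-high TAM minus colon macrophages (2) and 1 to 3 for the difference between the 2 tumour differences (2). With both tumour groups reduced to replicate 1, the number was 2 in F4/80-high TAM minus colon macrophages (Cd44 added) and 4 in the difference between the 2 tumour differences (Cd44 and Itgb3 added). Itgb3 was also added in each comparison with spleen monocytes, and Cd44 took the place of Itga9 in F4/80-high TAM minus Ly6C-high TAM. With only the 4 arrays of the groups compared, it was 1 for Ly6C-high TAM minus spleen monocytes and 0 for F4/80-high TAM minus Ly6C-high TAM, where quantile normalization, the mean of all probe sets and a fit of every probe set also gave 0 in limma (3 at an unadjusted p under 0.05 in each). Beside the counts of 0 with an array left out, 3 or 4 receptors had an unadjusted p under 0.05 in limma. The cause was not tested. Over all genes, limma called 57 in F4/80-high TAM minus Ly6C-high TAM, between 0 and 305 under the other settings and 33 with the replicate block. The calls over all genes ranged from 721 to 1790 in F4/80-high TAM minus colon macrophages (1370 as reported), 368 to 2536 in Ly6C-high TAM minus spleen monocytes (964), 1258 to 2718 in colon macrophages minus spleen monocytes (2343), 601 to 1886 in F4/80-high TAM minus spleen monocytes (1490), 692 to 2101 in Ly6C-high TAM minus colon macrophages (1479) and 172 to 2738 for the interaction (1407). No difference of a member of 0.5 or more changed direction under any of the 17 settings. Of 75 calls of pathway genes followed, 35 were lost without at least 1 array. With the replicate block, the counts were 1, 3, 1, 4, 4, 2 and 2 in the order above, and Itgb3 was the added call, in colon macrophages minus spleen monocytes. All receptor counts given here for the interaction include Itga9. Its interaction contains a difference known when the genes were chosen, so nothing is read from its part in those counts. The labels do not say whether same-numbered arrays share animals. The deviations of same-numbered arrays correlated at -0.15 to 0.77 over the 6 pairs of populations, highest between the tumour populations. The replicate block gave all populations 1 shared replicate effect, so a pairing of the tumour populations alone was not fitted. With 2 arrays per group, a missed threshold does not show that levels were alike.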
